A study of Mus musculus with 6 samples.

Results

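The rows described here were the named pseudogenes of cytosolic ribosomal protein genes in irradiated mouse cortex: those whose symbol began with Rpl or Rps and held -ps. Members were chosen by their measured level, as rows with at least 10 counts summed over the 6 libraries. Of 51826 rows in the count table, 276 carried such a name, 140 reached the count, and 71 held no count in any library. The summed count, which chose the members, ran from 10 to 114469 with a median of 78.5. The 6 members just inside the threshold, Rpl21-ps6, Rpl31-ps4, Rpl31-ps6, Rps12-ps1, Rps12-ps26 and Rps15-ps2, held 10 counts each. Rps12-ps14 and Rps15a-ps6, just outside it, held 9 each. The members named 47 parent genes, the symbol before -ps, with 1 member in 17 families and at most 13, for Rps12.

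The study asked what loss of asparagine endopeptidase (AEP, legumain), a lysosomal cysteine protease encoded by Lgmn, does to the irradiated brain. Bulk poly(A) RNA was sequenced from the cortex of 3 Lgmn+/+-IR and 3 Lgmn-/--IR mice on day 3 after a single whole-brain X-ray dose of 10 Gy. All animals were male BALB/c mice of 1 stated age range, every library here came from an irradiated animal, and no sham library was analysed. The Lgmn-/- animals were Lgmn flox/flox: Cre+, derived from 1 targeted embryonic stem cell clone injected into BALB/c blastocysts, with later Flp and Cre matings. The strain of the stem cells and the driver of Cre were not given in the sources used here, nor was it given whether the Lgmn+/+ and Lgmn-/- animals sequenced here were littermates. A difference at Lgmn and a difference in genetic background cannot be told apart in these libraries.

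Ribosomal protein genes encode the proteins of the large (Rpl) and small (Rps) ribosomal subunits, and nearly every cell transcribes them heavily. Their short, abundant mRNAs have been copied back into the genome many times, which left intronless processed pseudogenes scattered over the chromosomes. Most such copies have no promoter of their own and differ from the mRNA by few bases. A short read from the parent mRNA can therefore match copies as well as it matches the parent, and single bases decide which row receives it.

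Of the 140 members, 139 were found by gene identifier in GENCODE M21, which is on GRCm38. It classed 130 as processed pseudogenes, 5 as transcribed processed pseudogenes and 4 as protein coding. Identity to the best parent transcript had a median of 98.7% over these 139 rows, from 87.5% to 100%. In 13 members every window of 100 bases was also present, base for base, in a parent transcript, and in 18 members no such window was. When transcripts of all other annotated genes were counted, the copies of the same parent included, 29 members had no 100-base window of their own.

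The stretches below show the bases in which members of 4 families differed from the coding sequence of their parent. These families, Rpl21, Rplp0, Rpl35a and Rps2, were chosen with their values known, as those whose parent row differed most between libraries relative to its copies. All stretches run 5′ to 3′ on the strand of the gene, and capitals mark bases at which a shown member and its parent differ. Positions are counted from 1 at the first base of the start codon of the parent's principal transcript in GENCODE M21. The first set is bases 321 to 447 of Rpl21, with Rpl21-ps15 at chrX:151215203-151215329 (minus strand) and Rpl21-ps10 at chr3:38107476-38107602 (minus strand).
Rpl21: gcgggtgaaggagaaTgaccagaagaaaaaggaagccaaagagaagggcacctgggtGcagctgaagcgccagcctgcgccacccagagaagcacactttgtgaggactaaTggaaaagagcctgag
Rpl21-ps15: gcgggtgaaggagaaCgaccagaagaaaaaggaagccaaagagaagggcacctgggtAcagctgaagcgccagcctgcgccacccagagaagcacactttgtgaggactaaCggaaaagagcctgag
Rpl21-ps10: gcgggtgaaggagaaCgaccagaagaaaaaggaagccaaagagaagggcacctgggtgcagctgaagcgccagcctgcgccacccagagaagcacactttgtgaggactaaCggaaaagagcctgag
The second set is bases 622 to 721 of Rplp0, where Rplp0-ps1 (chr3:93278762-93278861, plus strand) differs from its parent at 9 of 100 bases.
Rplp0: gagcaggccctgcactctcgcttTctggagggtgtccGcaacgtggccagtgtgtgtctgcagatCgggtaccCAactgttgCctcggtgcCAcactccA
Rplp0-ps1: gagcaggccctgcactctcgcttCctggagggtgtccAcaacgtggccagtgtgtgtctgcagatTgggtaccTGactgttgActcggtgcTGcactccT
The third set is bases 126 to 186 of Rpl35a, with Rpl35a-ps3 at chr17:29137119-29137179 (minus strand) and Rpl35a-ps5 at chr5:33076163-33076223 (plus strand).
Rpl35a: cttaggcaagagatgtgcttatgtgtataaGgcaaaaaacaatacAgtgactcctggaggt
Rpl35a-ps3: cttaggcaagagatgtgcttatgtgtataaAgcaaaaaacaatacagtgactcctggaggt
Rpl35a-ps5: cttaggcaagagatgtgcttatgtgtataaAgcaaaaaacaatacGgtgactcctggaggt
Rpl35a-ps2, -ps4 and -ps6 had the same bases as Rpl35a-ps3 in this stretch. The fourth set is bases 174 to 234 of Rps2, with Rps2-ps6 at chr14:76237336-76237396 (minus strand) and Rps2-ps13 at chrX:52898761-52898821 (plus strand).
Rps2: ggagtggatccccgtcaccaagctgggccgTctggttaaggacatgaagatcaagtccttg
Rps2-ps6: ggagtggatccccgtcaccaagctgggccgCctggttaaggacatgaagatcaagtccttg
Rps2-ps13: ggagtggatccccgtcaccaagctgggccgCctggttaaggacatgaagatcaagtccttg

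Library totals ran from 41874462 to 46829441 counts, and 79 members passed the filter on low counts and were tested among 18345 genes. The other 61 members are given by counts only. Lgmn itself held 5558, 5528 and 5775 counts in the Lgmn+/+-IR libraries against 3703, 3269 and 4109 in Lgmn-/--IR, which was 1.56-fold lower (adjusted p = 0.0315) and short of the fold threshold used for a call. A count over the whole gene does not separate the deleted exons from the others. Values of 6 libraries are given throughout in the order Lgmn+/+-IR replicates 1 to 3, then Lgmn-/--IR replicates 1 to 3. Markers of cortical neurons, interneurons, astrocytes, oligodendrocytes, microglia, choroid plexus and striatum were detected in every library, and no gene of these lists was called. Among leukocyte markers, Cd3e and Ly6g were at 0 in every library. All 5 red cell genes were called higher in Lgmn-/--IR, their summed level running from 7.59 to 15.8 CPM (counts scaled to library size) in Lgmn+/+-IR and from 234 to 2273 in Lgmn-/--IR. Oligodendrocyte markers summed to 1889 to 2294 CPM against 1327 to 1488. The part of either in the results on members was not tested. In bulk tissue, more cells of a type and more RNA per cell cannot be told apart.

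All 140 members together carried 0.114 to 0.124% of all counts in the Lgmn+/+-IR libraries against 0.0734 to 0.112% in Lgmn-/--IR. A single row, Rps2-ps10, held 36.0 to 45.3% of the counts of all members, and the 10 members with the highest mean CPM held 86.0 to 88.4%. The members' sum was 14.3 to 14.9% of the sum of their parents in Lgmn+/+-IR and 10.9 to 11.7% in Lgmn-/--IR. Per length, Rps2-ps10 was listed at 521 ± 20.4 FPKM in Lgmn+/+-IR (SD, n = 3) and 348 ± 92.1 in Lgmn-/--IR. Its parent Rps2, a protein of the small subunit, was listed at 88.1 ± 3.93 and 36.7 ± 30.7 FPKM. The pseudogene row was thus above its parent per length in all 6 libraries, with 264 FPKM against 17.8 in the library where it was lowest, Lgmn-/--IR replicate 3.

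Differential expression between Lgmn-/--IR and Lgmn+/+-IR was called at an adjusted p under 0.05 and a change of more than 2-fold, the thresholds of the study, with edgeR's quasi-likelihood test and Benjamini-Hochberg adjustment over all genes tested. Across the table, 2.06% of genes were differentially expressed genes (DEGs), 0.959% higher and 1.10% lower in Lgmn-/--IR. Of the 79 tested members, 3 were DEGs, all lower in Lgmn-/--IR: Rpl21-ps15, Rpl21-ps10 and Rplp0-ps1. No member was a DEG in the other direction under this test. An unadjusted p under 0.05 was found for 6 of the 79 members, beside 3413 of all 18345 genes tested. The median log2 fold change was 0.05 over the tested members and -0.01 over all genes. The other 76 members lay between -0.62 (Rpl35a-ps5) and 0.65 (Rpl34-ps1), with adjusted p-values of 0.081 or more.

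Rpl21-ps15 (ENSMUSG00000083596) is a copy of the mRNA of Rpl21, a protein of the large subunit. It held 436, 406 and 422 counts in the Lgmn+/+-IR libraries against 58, 49 and 53 in Lgmn-/--IR. The lowest Lgmn+/+-IR library thus lay far above the highest Lgmn-/--IR library, and the row was 8.11-fold lower in Lgmn-/--IR (log2 fold change -3.02, SE 0.15, adjusted p = 0.000149). Rpl21-ps10 (ENSMUSG00000105359), a weaker row of the same family, held 52, 65 and 42 counts against 12, 8 and 8. It was 5.80-fold lower (log2 fold change -2.53, SE 0.34, adjusted p = 0.0112), and since it held fewer than 10 counts in 2 of the 3 Lgmn-/--IR libraries, it passed the filter only through Lgmn+/+-IR. The call of Rpl21-ps10 was lost without Lgmn+/+-IR replicate 2 (adjusted p = 0.0597) and without Lgmn-/--IR replicate 3 (adjusted p = 0.0562).

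Rplp0-ps1 (ENSMUSG00000081640) is a copy of the mRNA of Rplp0, the acidic protein at the base of the ribosomal stalk. It held 16, 30 and 23 counts in the Lgmn+/+-IR libraries against 0, 0 and 0 in the other group. It passed the filter only through the Lgmn+/+-IR libraries, so that a difference was a condition of its being tested. Against a floor of 3 counts over the Lgmn-/--IR group it was at least 23.7-fold lower (adjusted p = 0.0177). The call was lost without Lgmn+/+-IR replicate 2 (adjusted p = 0.0829) or 3 (adjusted p = 0.0746).

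**Figure D1:**
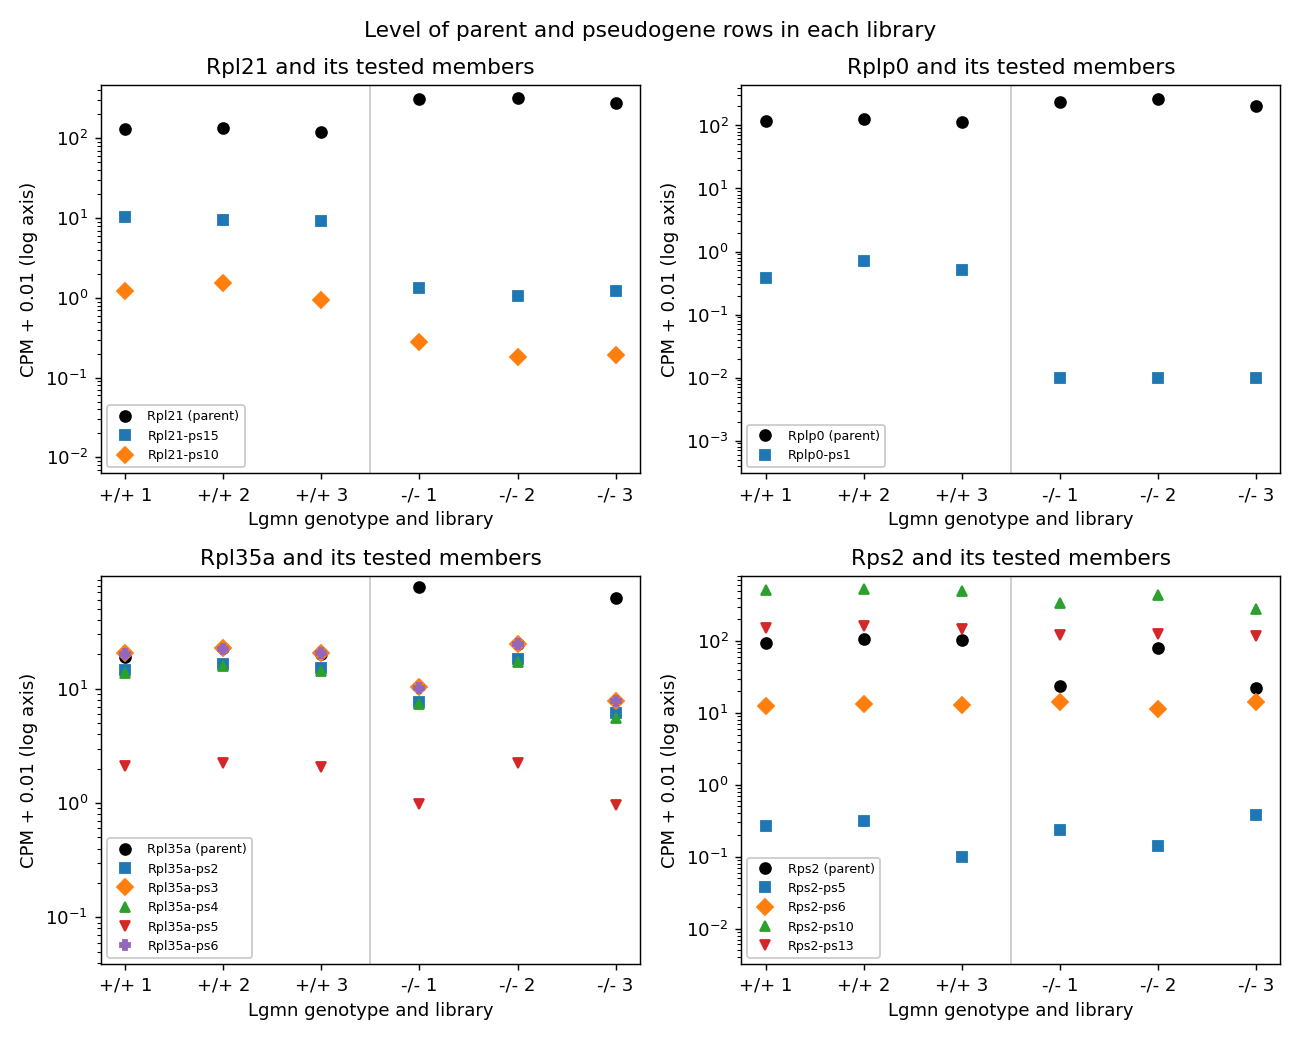
Level of the parent gene and its tested members in each of the 6 libraries for Rpl21, Rplp0, Rpl35a and Rps2, as CPM + 0.01 on a log axis, 1 point per library. Rpl21 and Rplp0 members are lower in all 3 Lgmn-/--IR libraries, whereas the Rpl35a and Rps2 rows of Lgmn-/--IR replicate 2 sit near the Lgmn+/+-IR libraries.

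The parents of the 3 DEGs differed in the opposite direction. Rpl21 held 5534, 5805 and 5504 counts in the Lgmn+/+-IR libraries against 13746, 14974 and 12239 in Lgmn-/--IR, 2.36-fold higher (log2 fold change 1.24, SE 0.09, adjusted p = 0.000861). Rplp0 held 5039, 5433 and 5186 counts against 10275, 12260 and 8977. Its groups did not overlap either, and its change of 1.95-fold (adjusted p = 0.00619) was just under the fold threshold, which it passed without Lgmn+/+-IR replicate 2 or Lgmn-/--IR replicate 3 and on log2(FPKM + 0.1) with limma (log2 fold change 1.01, adjusted p = 0.00571), as well as on log2(FPKM + 1) with or without the filter. Rpl21-ps15 was 7.88, 6.99 and 7.67% of Rpl21 in Lgmn+/+-IR against 0.422, 0.327 and 0.433% in Lgmn-/--IR. Rplp0-ps1 was 0.318, 0.552 and 0.444% of Rplp0 against 0 in all 3. Of all 47 parents, which were all tested, Rpl21 was the single DEG on counts in all 6 libraries with edgeR.

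**Figure D2:**
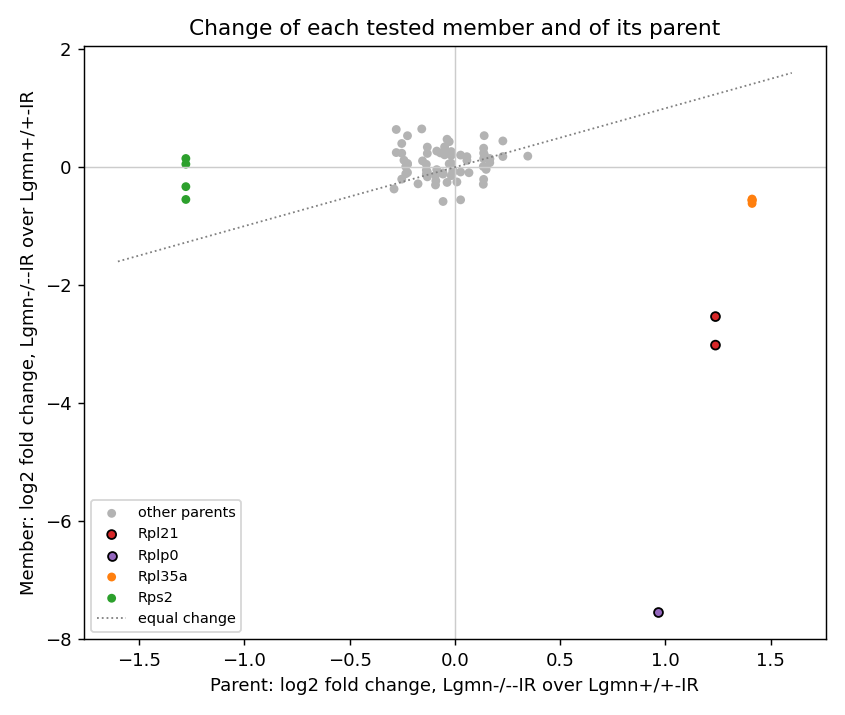
Log2 fold change (Lgmn-/--IR over Lgmn+/+-IR) of each of the 79 tested members against that of its parent, with DEGs outlined in black. Tested members outside Rpl21, Rplp0, Rpl35a and Rps2 cluster near 0 on both axes. The DEGs lie below 0 with parents above 0, and the value of Rplp0-ps1 is a fitted one that depends on the prior count.

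Because reads can pass between rows with and without a -ps name, all pseudogene rows that matched a parent transcript were added to each family by sequence, at 90% identity or more over at least 80% of the copy. This gave 803 copies of the 47 parents, 328 of them with at least 10 counts. The Rpl21 family then had 36 copies with at least 10 counts, of which 17 were tested and 9 were DEGs, all lower in Lgmn-/--IR. The largest falls were in rows with no -ps name. Gm13370 held 1438, 1445 and 1428 counts in the Lgmn+/+-IR libraries against 13, 14 and 14 in Lgmn-/--IR (log2 fold change -6.75, SE 0.13, adjusted p = 2.04e-06). Gm10163 and Gm10240 fell by 6.38 and 6.28 on the log2 scale. In the Rplp0 family, Gm8730 held 4937, 5399 and 5018 counts against 771, 1176 and 697, and Gm9625 held 1001, 1122 and 980 against 48, 35 and 35, and both were DEGs. Gm14165, with 40, 35 and 57 counts against 1, 3 and 1, and Rplp0-ps1 were also called. Gm14165 and Rplp0-ps1 passed the filter through Lgmn+/+-IR alone. In the Rpl21 family so did Rpl21-ps10 and Gm37070, the latter with 17, 26 and 12 counts against 1, 3 and 3. The same held for Gm11703 (68, 82 and 74 against 8, 14 and 7) and Gm12411 (136, 155 and 148 against 8, 16 and 13). The numbers of called copies are therefore given as a description.

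The share of a family's counts held by the parent row needs no normalization. The Rpl21 row held 42.2, 42.4 and 42.0% of the counts of Rpl21 and its copies in Lgmn+/+-IR against 88.4, 86.1 and 89.3% in Lgmn-/--IR. The Rplp0 row held 45.7, 45.2 and 46.0% against 92.6, 91.0 and 92.5%. In both families the share was nearly constant within a genotype and about 46 percentage points higher in Lgmn-/--IR, with every row counted. Gm10163, Gm10240 and Gm13370 had nearly equal counts, and whether they were counted from the same reads was not tested. Entered once, as their mean, they brought the Rpl21 sums to 10251, 10810 and 10243 counts against 15509, 17362 and 13677. The Rpl21 share in Lgmn+/+-IR is then higher and its shift smaller. Outside Rpl21, Rplp0, Rpl35a and Rps2, the parent's share varied over the 6 libraries by a median of 0.7 points in 43 families, and by at most 7.4 points, for Rpl3. The Rpl3 row held 50.2, 51.5 and 49.8% of its family in Lgmn+/+-IR against 44.8, 52.2 and 45.5%, with Lgmn-/--IR replicates 1 and 3 the lowest. The range in the Rps2 family, 7.3 points, was no larger, but its parent's share is small, so that it differed more in proportion. In 4 of these 43 the genotypes did not overlap, with shifts of the mean of 0.4 to 2.3 points.

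**Figure D3:**
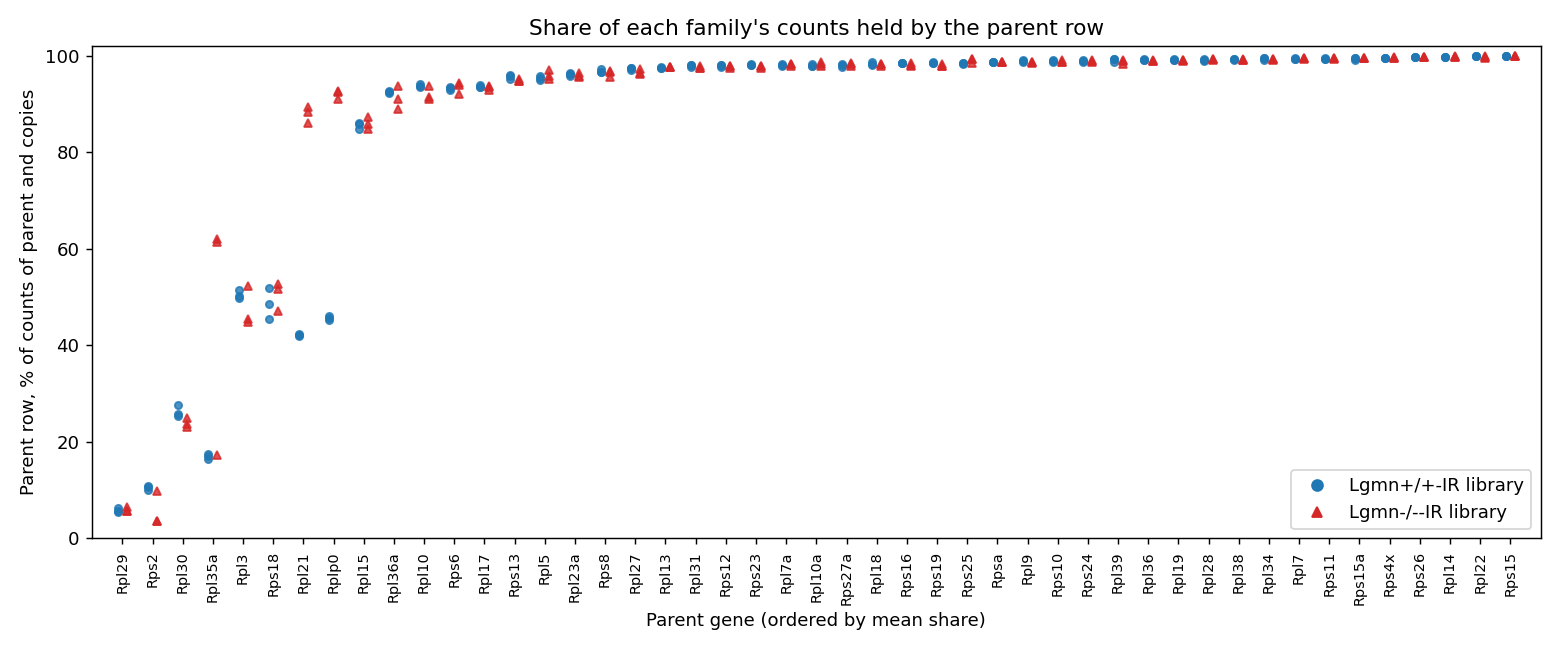
Share of the counts of a parent and its copies that the parent row held, in percent, for 47 families ordered by their mean share, with 1 point per library. Every row is counted, also rows of nearly equal counts. The Rpl21 and Rplp0 rows stand at 42.0 to 46.0% in Lgmn+/+-IR and at 86.1 to 92.6% in Lgmn-/--IR, and the Rpl35a and Rps2 rows differ in 2 of the 3 Lgmn-/--IR libraries.

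The Rpl35a family, whose parent is a protein of the large subunit, split the Lgmn-/--IR libraries. The Rpl35a row held 16.5, 17.5 and 17.0% of its family in Lgmn+/+-IR against 61.5, 17.3 and 62.0% in Lgmn-/--IR. Lgmn-/--IR replicates 1 and 3 thus stood apart, and replicate 2 lay within the Lgmn+/+-IR range. Rpl35a itself held 814, 975 and 921 counts against 3491, 1145 and 2719 (log2 fold change 1.41, SE 0.38, adjusted p = 0.106), and DESeq2, as an alternative tool, called it (adjusted p = 0.00139). It was not called by limma-voom (adjusted p = 0.179) or by limma on log2(FPKM + 1) (adjusted p = 0.164). Nor did edgeR call it with RLE scaling (adjusted p = 0.103), library totals alone (adjusted p = 0.11) or a replicate block (adjusted p = 0.256). Rpl35a-ps3, among the most abundant members, held 876, 966 and 933 counts against 457, 1150 and 344. Its groups overlapped through replicate 2, and it was not a DEG (log2 fold change -0.57, SE 0.39, adjusted p = 0.492).

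Without Lgmn-/--IR replicate 2, Rpl35a-ps2, -ps3, -ps4 and -ps6 also became DEGs, each lower in Lgmn-/--IR, and the number of members called went from 3 to 7. Rpl35a-ps3 then had a log2 fold change of -1.22 (SE 0.16, adjusted p = 0.0219) and Rpl35a one of 1.77 (SE 0.14, adjusted p = 0.0045). Rpl35a-ps5, the least abundant of the 5 members, had a log2 fold change of -1.14 and an adjusted p of 0.0543. What sets replicate 2 apart in this family was not tested. Its summed red cell markers stood at 1728 CPM, between the 2273 and 234 of replicates 1 and 3.

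In the Rps2 family the same libraries stood apart, but the parent row was the low one. Rps2 held 4001, 4509 and 4667 counts in the Lgmn+/+-IR libraries against 1035, 3674 and 965 in Lgmn-/--IR (log2 fold change -1.28, SE 0.48, adjusted p = 0.221). Without replicate 2 its log2 fold change was -2.15 (SE 0.10, adjusted p = 0.000794). Its share of the family was 10.0, 10.6 and 10.9% against 3.6, 9.9 and 3.7%. None of the 4 tested members was a DEG. Rps2-ps10 held 21709, 22604 and 22738 counts against 14962, 20069 and 12387, so that the genotypes did not overlap (log2 fold change -0.55, SE 0.15, adjusted p = 0.117). Rps2-ps13 held 6445, 6889 and 6750 against 5320, 5902 and 5236 (log2 fold change -0.33, SE 0.08, adjusted p = 0.081). Rps2-ps6 held 526, 572 and 579 counts against 639, 530 and 615, and its groups overlapped (log2 fold change 0.05, SE 0.13, adjusted p = 0.859). Relative to its parent it was 13.1, 12.7 and 12.4% in Lgmn+/+-IR against 61.7, 14.4 and 63.7% in Lgmn-/--IR. Rps2-ps5, a weak row with 4 to 16 counts, had the largest positive difference from its parent, 1.42 on the log2 scale.

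The other abundant members, of the Rpl3, Rpl30 and Rps18 families, showed smaller differences. Rpl3-ps1, a copy of the mRNA of a core protein of the large subunit, held 7977, 9383 and 9843 counts in the Lgmn+/+-IR libraries against 8897, 9601 and 7424 in Lgmn-/--IR (adjusted p = 0.644). Its ratio to Rpl3 was 77.3, 73.2 and 78.6% against 93.1, 70.4 and 90.9%, with replicate 2 again nearest to Lgmn+/+-IR. Rpl30-ps9 was 46.9, 46.6 and 43.7% of Rpl30 against 62.6, 49.8 and 52.3%, and the groups did not overlap. Rpl3-ps2 and Rps18-ps3, the remaining members of the 10 most abundant, had log2 fold changes of 0.01 (adjusted p = 0.972) and -0.37 (adjusted p = 0.499). Over 14 ratios of a named member to its parent, 6 did not overlap between genotypes. Some of the 14 were picked for their change or their difference from the parent, so this count is a description. The ratio was not computed for the other tested members. Each of the 6 had the smallest two-sided p that the exact permutation test of 3 against 3 allows, 0.10. The adjusted p over the picked set was 0.233 for each.

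The sum over a family's rows does not depend on how its counts are divided between them. Whether reads passed between rows was not tested. With each parent and its -ps rows summed before the fit, 2.05% of the table was called and Rpl21 was the single DEG of the 47 families (log2 fold change 1.13, SE 0.09, adjusted p = 0.00135). With all copies found by sequence in the sum, a choice made after seeing the data, 1.95% of the table was called by edgeR's test. None of the 47 families was called, and 4 had an unadjusted p under 0.05. In the fit of single rows, 3413 of 18345 genes had one. The Rpl21 sums were 13111, 13684 and 13090 counts in the Lgmn+/+-IR libraries against 15542, 17394 and 13712 in Lgmn-/--IR (log2 fold change 0.19, SE 0.10, adjusted p = 0.365). The Rplp0 sums were 11033, 12019 and 11268 against 11101, 13476 and 9710 (log2 fold change -0.04, SE 0.12, adjusted p = 0.875). The Rpl35a sums gave 0.02 (SE 0.14, adjusted p = 0.945). The Rps2 sums were 39905, 42414 and 42633 against 28936, 37112 and 26366, a log2 fold change of -0.48 (SE 0.12, adjusted p = 0.0925).

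**Figure D4:**
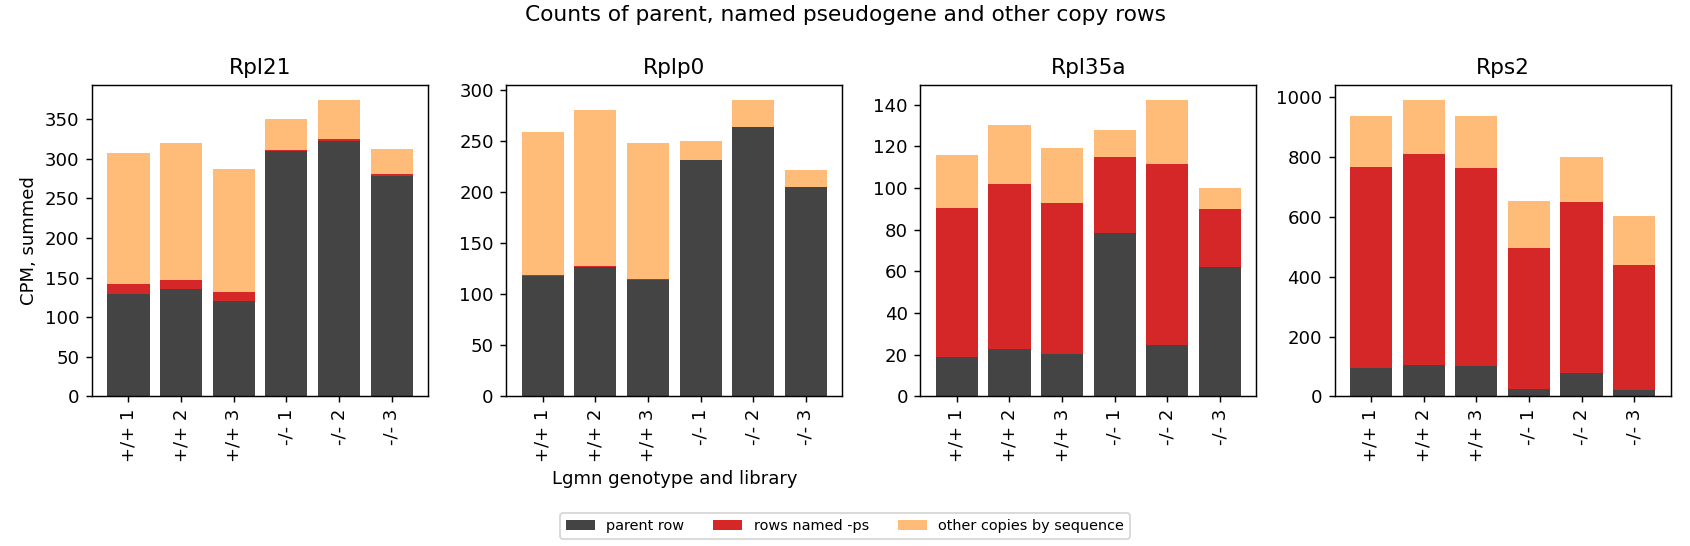
Summed CPM of the parent row, the rows named -ps and the other copies found by sequence, stacked for each library in 4 families, with each axis starting at 0. Bars of Rpl21 and Rplp0 change in composition between genotypes, and the parent part of Rpl35a and Rps2 differs in Lgmn-/--IR replicates 1 and 3.

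Some rows within a family had nearly equal counts in every library. Rpl35a-ps3 and Rpl35a-ps6 have the same 333 bases, and their counts differed by at most 13 in any library: Rpl35a-ps6 held 863, 958 and 930 counts in the Lgmn+/+-IR libraries against 453, 1143 and 343 in Lgmn-/--IR. The squared difference over the sum, added over the libraries, was 0.176 for this pair, where independent counts of equal expectation give about 6. Of 329 pairs of rows within families, 6 gave a value under 3, among them Gm10163, Gm10240 and Gm13370 of the Rpl21 family. Equal sequence did not in general go with equal counts: 2 of the 13 pairs of identical sequence were under that value, and Rpl35a-ps2 and Rpl35a-ps3, also identical, gave 195. Values such as the 2.96 of Gm10240 and Gm13370 also occur between independent rows, and whether any rows were counted from the same reads was not tested. If they were, a sum enters those reads more than once. With the 9 rows of these pairs grouped and each group entered once, the Rpl21 sum had a log2 fold change of 0.53 (SE 0.10, adjusted p = 0.0381), still under the fold threshold, and no family was a DEG.

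Called members differed in how much sequence they share with other rows. In Rpl21-ps15, 61.5% of the 100-base windows were present in Rpl21 and 84.9% in some other annotated gene, and its longest exact match to the parent was 335 bases. In Rpl21-ps10 these shares were 19.7% and 39.4%. Rplp0-ps1, at 94.2% identity, had no 100-base window in common with Rplp0, and its longest exact match was 93 bases. Members that were not called could share as much: in Rpl3-ps1, with 99.8% identity to its parent, 85.8% of such windows were present in Rpl3, and in Rpl30-ps9 59.3% were present in Rpl30.

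The bases in which copies differ from the reference parent were then set against the calls. Of the 36 Rpl21 copies, 32 carried T336C and 29 carried T432C, both shown in the printed stretch. All 9 copies that were DEGs carried T336C, and 8 carried T432C. This is a description, since these rows may not be independent: Gm10163, Gm10240 and Gm13370 had nearly equal counts. Rpl21-ps10, Gm37070, Gm11703 and Gm12411 passed the filter through Lgmn+/+-IR alone. Among the 8 tested copies that were not DEGs, 6 carried T336C and 5 carried T432C, so these bases were also present in copies that were not called. Rpl21-ps15 has 1 further difference from the coding sequence, and the 3 copies with the largest falls have none beyond these bases. The 4 copies without T336C had no common direction, and none was called. Rpl21-ps8 held 6, 7 and 10 counts against 24, 21 and 10, and Gm10916 held 2, 12 and 14 against 8, 5 and 9, neither of them tested. Gm14648 was tested at -0.36 on the log2 scale (adjusted p = 0.508), Gm43028 at 0.52 (adjusted p = 0.503). Some copies that carry T336C were also higher in Lgmn-/--IR without a call, such as Gm9104 (log2 fold change 0.73, adjusted p = 0.395) and the untested Rpl21-ps11, with 1, 1 and 0 counts against 2, 5 and 4. The most abundant copy, AC110377.1, carries T336C and T432C and was not called. It held 2216, 2445 and 2226 counts against 1408, 2060 and 1087 (log2 fold change -0.65, SE 0.21, adjusted p = 0.158). Without Lgmn-/--IR replicate 2 its log2 fold change was -0.90 (adjusted p = 0.0408), still under the fold threshold.

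**Figure D5:**
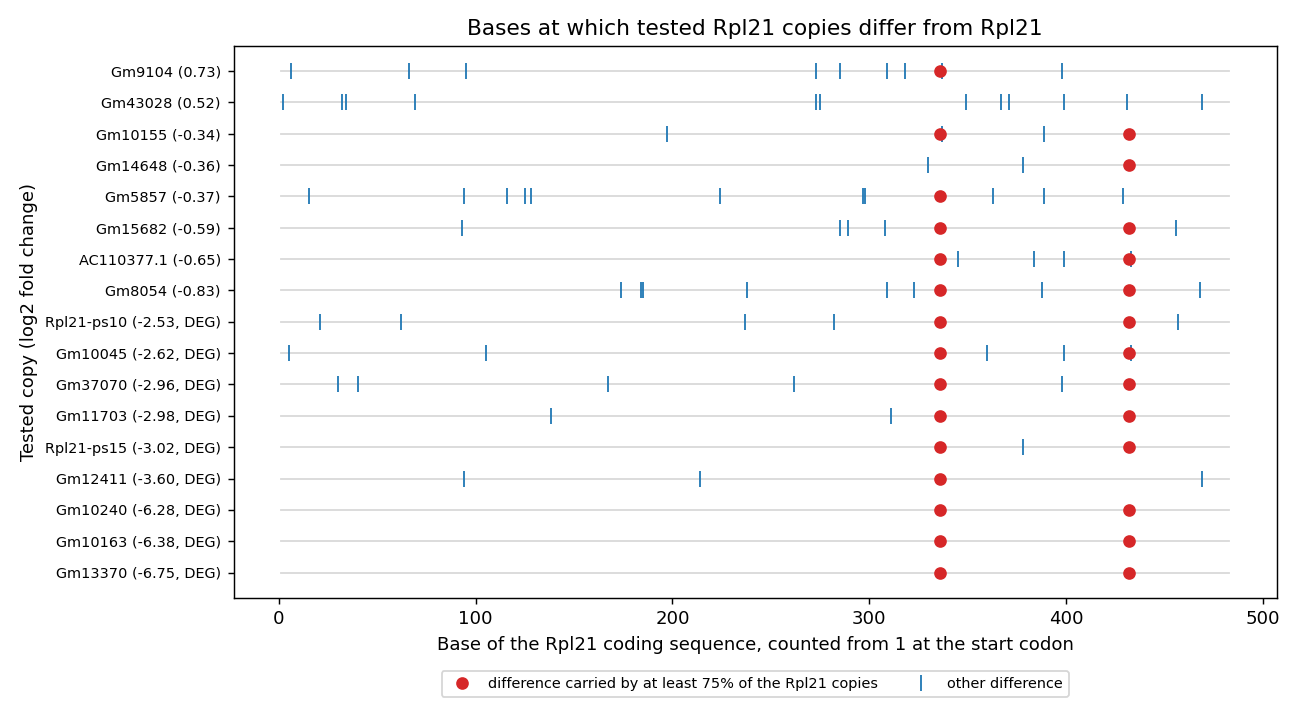
Positions at which each of the 17 tested Rpl21 copies differs from the Rpl21 coding sequence, ordered by log2 fold change (in brackets), with circles for differences carried by at least 75% of the copies. The 3 copies with the largest falls differ from Rpl21 at the 2 circled positions only, and their counts were nearly equal in every library.

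All 10 Rpl35a copies with at least 10 counts carried G156A, which lies at 33057534 of chromosome 16 in the parent. In Rplp0, T72C, T192C, A390G, A393G, A696G and A784G were present in all 5 copies with at least 10 counts. In Rps2, T60A, T204C and T756C were carried by 28, 29 and 28 of 32 copies. The parents' bases here are those of the reference genome. The deposited counts hold no bases, so the alleles of these animals at the 4 parents were not analysed here, and reads shared between rows and strain variants cannot be told apart from counts alone.

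The positions of the called members were not shared. Rpl21-ps15 lies in an intron of Wnk3 on the opposite strand, Rpl21-ps10 in an intron of the non-coding gene Gm43821 and Rplp0-ps1 in an intron of Flg, both on the same strand. Within 1 Mb of Rpl21-ps15, 1 of 21 tested genes was a DEG, the erythroid gene Alas2. There was no DEG among 14 tested genes around Rpl21-ps10 or among 5 around Rplp0-ps1. Around the parents, 0 of 17 tested genes near Rpl21, 0 of 43 near Rplp0 and 0 of 25 near Rpl35a were DEGs, and 1 of 76 near Rps2. Within 1 Mb of all annotated members together, 1.62% of tested genes were DEGs, counting a gene once for each member it neighbours, beside 2.06% over the table.

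Over all members, the called ones included, 17 of the 140 had libraries that did not overlap between genotypes in CPM, 11 of them tested, which is 13.9% of the tested members beside 25.7% of all genes tested. Of these 11, 7 were lower and 4 higher in Lgmn-/--IR. The untested Rpl19-ps4 held no count in Lgmn+/+-IR against 8, 10 and 6 in Lgmn-/--IR, at least 7.78-fold higher against a floor of 3 counts over the group. It was the single member absent from Lgmn+/+-IR and present in every Lgmn-/--IR library, and it had no test. Rpl30-ps10 held 342, 377 and 352 counts against 498, 483 and 420 (log2 fold change 0.34, adjusted p = 0.202), and Rpl29-ps2 held 38, 44 and 40 against 21, 35 and 28 (adjusted p = 0.316).

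Besides Rpl21, which has 7 members and is described with its calls, the families with the most members were Rps12, Rpl31, Rpsa and Rps19, and none of their members was a DEG. Of 13 members of Rps12, a protein of the small subunit, 2 were tested: Rps12-ps3 held 42, 43 and 29 counts against 34, 52 and 29 (adjusted p = 0.958), and Rps12-ps9 held 21, 19 and 20 against 25, 32 and 18 (adjusted p = 0.685). The other 11 held at most 14 counts in any library. Of 9 members of Rpl31, a large subunit protein, Rpl31-ps8 was the most abundant with 116, 123 and 136 counts against 176, 163 and 121, and its groups overlapped (log2 fold change 0.25, SE 0.19, adjusted p = 0.512). Of 7 members of Rpsa, a small subunit protein also known as the laminin receptor, Rpsa-ps10 held 113, 98 and 108 counts against 136, 138 and 114 (log2 fold change 0.24, SE 0.17, adjusted p = 0.495). In Rps19, Rps19-ps3 held 48, 58 and 47 counts against 69, 76 and 43 (adjusted p = 0.674). The parents of these 4 families had adjusted p-values of 0.384 to 0.891.

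The wider lists set these counts in context. Of 86 tested rows with the symbol of a cytosolic ribosomal protein gene, 4 were DEGs (4.65%): Rpl21 and Rpl26 were higher, and Rps3a2 and Rps3a3 lower. The list was made by symbol alone and can hold copies without a -ps name. Whether Rps3a2 and Rps3a3 are such copies was not examined. Of 93 tested -ps rows outside the Rpl and Rps names, 12 were DEGs (12.9%), 3 higher and 9 lower, against 3 of 79 members (3.80%). These counts are a description, since both include rows that passed the filter only through the group where they are high. Among the members these were Rplp0-ps1 and Rpl21-ps10, and among the others Phgdh-ps1 (12, 14 and 13 counts against 0, 0 and 0), Tmem181c-ps and H2-T-ps. Itpa-ps1 was among the lower ones, with 1002, 985 and 1033 counts against 14, 7 and 5 in Lgmn-/--IR. The median log2 fold change was -0.03 over the ribosomal protein genes and 0.02 over the other -ps rows.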

How the data were processed

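Values are those of 6 bulk poly(A) RNA-seq libraries of cortex, 3 per genotype and 1 animal each. Per the labels and the study's methods, the authors trimmed reads with Trimmomatic 0.36, mapped them with HISAT2 to GRCm38 and computed expression with StringTie. The deposited table holds raw counts per gene and, beside them, FPKM of the authors. The read counter, its annotation, its strand setting and its treatment of reads that match several places were not given in the sources used here. No sample column was left unused (0).

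Counts were tested with edgeR 4.0.16 in R 4.3.3 (TMM factors, filterByExpr by genotype, quasi-likelihood F-test, Benjamini-Hochberg over all genes), with genotype as the only term. DEGs passed an adjusted p of 0.05 and a 2-fold change (1 on the log2 scale). DESeq2 1.42.0, limma 3.58.1 on voom values and on log2(FPKM + 1), other scalings, filters and libraries left out were alternatives. Scripts were tested on simulated data. Depth, 41874462 to 46829441 counts per library, limits the weak rows, and floors cover counting error only. P-values measure the spread between these 3 animals per group.

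Sequences and positions came from GENCODE M21 on GRCm38. Exact windows were searched on both strands in annotated transcripts of parents and of other genes, since no genome sequence was used here, and identity was taken from the best alignment over all parent transcripts. Bases were compared with the longest coding sequence among the parent's principal transcripts by global alignment.

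Named members were every DEG, tested members with non-overlapping libraries and a change over 1 on the log2 scale, the 10 with the highest mean CPM, those nearest to the threshold of 10 counts, those differing most from their parent, and the parents of these. Others, and the Rpl21, Rplp0, Rpl35a and Rps2 families and their copies, were picked with their values known. The members, lists and rules were chosen with earlier results of these data known.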

Additional observations from a re-analysis of the deposited data

How the results depend on the processing

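The 3 members called were the same 3 with DESeq2, limma-voom, RLE scaling, library totals alone and no filter on low counts, and limma on log2(FPKM + 0.1), and no setting on counts called a member higher in Lgmn-/--IR. With at least 10 counts in every library 1 member was called (1 lower), since Rpl21-ps10 and Rplp0-ps1 could not pass that filter, and with the replicate block 1 (Rpl21-ps15, 1 lower). Leaving out 1 library gave 1 to 7 members, all lower: 1 without Lgmn+/+-IR replicate 2, 7 without Lgmn-/--IR replicate 2. On log2(FPKM + 1) 2 members were called, with or without a filter, and a summed count of 60 or no threshold on the fold kept 3. Family sums over -ps rows gave 1 call, 1 to 2 when a library was left out, and 2 with no threshold on the fold, Rplp0 being added. Family sums with all copies by sequence, chosen after seeing the data, gave 0 calls, also with the replicate block, with any library left out (0 to 0) and with near-equal rows entered once.

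Same-numbered libraries are different animals, and the correlations of their deviations from the group means were -0.308, -0.045 and -0.0525. Those of differently numbered libraries ran from -0.212 to 0.266. So few correlations cannot show whether same-numbered libraries were handled together. Under the block Rpl21-ps10 had an adjusted p of 0.07 and Rplp0-ps1 of 0.131.

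Of 221 values of 14 named members under alternatives, 200 kept direction and call, 8 lost and 3 gained the call, and 10 changed sign, all of them uncalled values near 0. These were Rpl3-ps2 (-0.02 with library totals alone, -0.06 to 0.09 with a library left out, -0.03 in each FPKM setting), Rps2-ps5 (-0.28 to 0.47 with a library left out) and Rps2-ps6 (-0.01 to 0.15 with a library left out). Weak rows are limited by depth: 60 of the 140 members hold fewer than 60 counts in all. The cause of these changes was not tested.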
